A study of Mus musculus with 28 samples.

Results

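The histone mark H4K20me1, histone H4 carrying a single methyl group on lysine 20, was mapped by chromatin immunoprecipitation with sequencing in IDG-SW3 mouse bone cells at day 3 and at day 35 of differentiation, with 1 library a day. These are 2 of the 28 samples of the study, which profiled 9 histone marks on both days and the vitamin D receptor and its partner at day 35. IDG-SW3 cells come from a mouse with a temperature-sensitive, interferon-driven immortalizing gene and with a GFP transgene under the Dmp1 promoter. Both days share this line, its transgenes, the osteogenic medium with ascorbic acid and β-glycerol phosphate, and one antibody lot. The cells had been expanded at 33 °C with 50 U/mL interferon gamma and were then moved to 37 °C without it. Time since that switch and time in differentiation are the same variable, so they cannot be told apart. The labels call both samples osteocytic cells. Neither was treated.

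All called H4K20me1 regions of chromosomes 1 to 19 were used, 34341 at day 3 and 22292 at day 35, of 937290 regions in the 26 lists of the study. For each of 21418 protein-coding genes the share of the gene body (first to last base of the gene) lying under called regions was taken at each day. A gene gained or lost the mark where this coverage changed by 25 percentage points or more from day 3 to day 35. With 1 library a day, no difference between days below has a replicate check and none was tested. A change in coverage can come from the cells, from depth or from the region calling. The sources used here give no read totals.

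H4K20me1 is written by SETD8, which acts late in the cell cycle, and is erased by demethylases of the PHF8 family or converted to higher methylation states by SUV420H1 and SUV420H2. It is linked to chromosome condensation and to origins of DNA replication. In many cell types it also lies in wide domains over the bodies of transcribed genes, together with H3K36me3, the mark left by elongating RNA polymerase, although H4K20me1 is strongest toward the gene start and H3K36me3 toward the gene end.

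The mark took up more of the genome at day 35, in fewer and wider regions. Regions covered 212.35 Mb at day 3 (8.59% of chromosomes 1 to 19) and 240.48 Mb at day 35 (9.73%), a ratio of 1.132. The median region was 1650 bp wide at day 3 and 3216 bp at day 35, but with both lists limited to an equal number of regions by score the order turned, to 3486 bp at day 3 and 3216 bp at day 35. Wide domains rose in number all the same: regions of at least 50 kb numbered 651 at day 3 and 978 at day 35, and those of at least 100 kb 130 and 225. Regions of at least 10 kb held 69.92% of the covered bases at day 3 and 81.69% at day 35. Protein-coding genes held 92.1% of the covered bases at day 3 and 95.04% at day 35, although gene bodies make up 38.39% of these chromosomes.

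The domains were largely shared. Both days together covered 65.25% of the bases that either day held, and 12.24% were held at day 3 alone (33.54 Mb) and 22.51% at day 35 alone (61.67 Mb). Day 35 covered 84.21% of the day 3 bases. Among stretches covered at day 3 alone the median was 637 bp, and 27 were 20 kb or wider. Among stretches covered at day 35 alone the median was 1137 bp, and 104 were 20 kb or wider. Bases covered at day 35 alone had 45.4% GC, against 43.64% where both days were covered and 43.63% at day 3 alone. In the limited range of scores examined, the distinct scores lay mostly on multiples of a small step, 0.1657 at day 3 and 0.1728 at day 35. Of the values either seen or predicted by the step, 97.26% and 98.55% were both. What the step stands for, and whether it is the worth of 1 read, is not stated. The score per kb of regions of 10 kb or more had a median of 46.91 at day 3 and 77.88 at day 35.

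The widest domain of day 3 lay over Nfia, a developmental transcription factor, at chr4:97445699-97730577 (284.9 kb), and was followed by domains over Efna5 (281.2 kb), an ephrin ligand, Ppp3ca (273.8 kb), a calcineurin catalytic subunit, Exoc4 (240.7 kb), an exocyst subunit, and Fto (237.5 kb), an RNA demethylase. At day 35 the widest lay over Odz4, a teneurin cell-adhesion gene, at chr7:103473203-103873710 (400.5 kb). The next, at chr8:122753223-123107644 (354.4 kb), took in Gse1, whose body is 92.5 kb, and part of Gins2. Most of this domain lay before the start of Gse1. Domains over Fndc3b (298.7 kb), Efna5 (275.3 kb) and Ppp3ca (258.1 kb) followed. Body coverage of Efna5 was 100% and 98.94% at the 2 days and that of Ppp3ca 100% and 98.81%. Coverage of the same genes by H3K36me3 went from 81.85% to 24.17% at Efna5 and from 91.42% to 51.64% at Ppp3ca. At Efna5 and Ppp3ca, named for wide domains at both days, the H4K20me1 domain held its extent while called H3K36me3 covered less of the body. H3K36me3 coverage was also lower at day 35 at Exoc4 (87.23% and 60.69%) but changed little at Fndc3b (98.43% and 93.99%). Nfia was 74.32% covered at day 3 and 52.14% at day 35, just short of a loss. Odz4 went from 68.53% to 81.96%.

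Among the 21418 genes, 2000 gained H4K20me1 (9.34%) and 574 lost it (2.68%). A further 3647 kept it, being at least 50% covered at both days without a change of that size, 9754 were uncovered at both days, and 5443 lay between. Gained genes had a median coverage of 29.73% at day 3 and 78.3% at day 35. Lost genes had a median of 70.2% at day 3 and 7.57% at day 35. Genes at least 50% covered numbered 4624 at day 3 and 5831 at day 35, and 90.51% of the former were still so at day 35. Only 111 genes went from 0% to at least 50%, and 113 went the opposite way. Gained genes made up 77.7% of those that moved. When the day 35 list was trimmed from its lowest scores to the covered length of day 3, 1508 genes gained and 1082 lost, so that gained genes were 58.2% of those that moved. When coverage was taken over the first 5 kb of each gene, 1659 gained (7.75%) and 897 lost (4.19%).

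**Figure D1:**
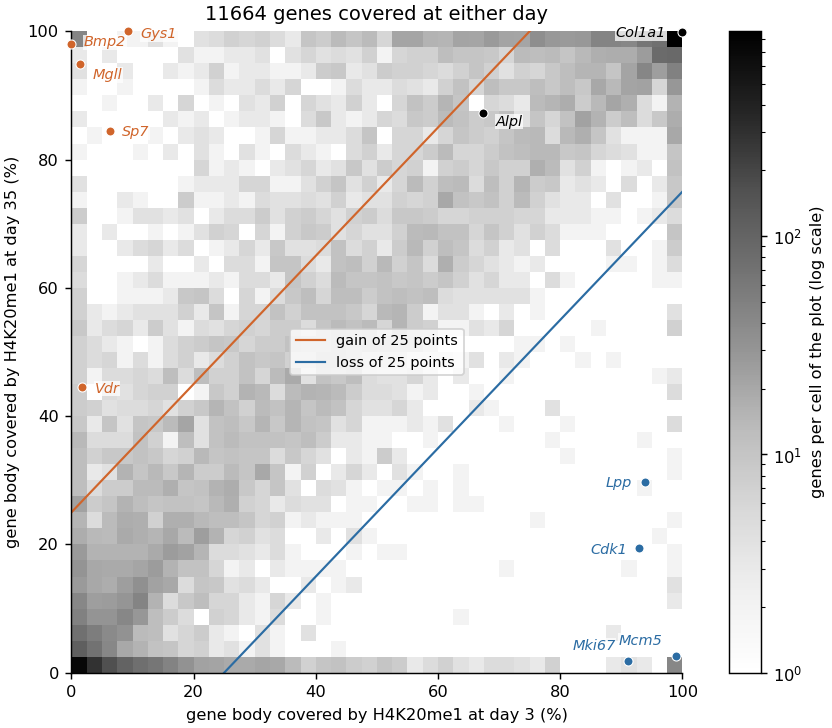
H4K20me1 coverage of each gene body at day 3 (x axis, %) and day 35 (y axis, %), for the genes covered at either day; shade gives the number of genes on a log scale, and the lines mark a gain and a loss of 25 points. Most genes lie between the lines; Bmp2, Mgll, Gys1, Sp7 and Vdr lie above them and Mcm5, Mki67, Cdk1 and Lpp below, while Col1a1 and Alpl lie between.

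Gained genes rose more in the middle and toward the end of the body than near the start, as a mean over genes. In the 1425 gained genes of at least 10 kb, mean coverage in the first 4 of 20 equal bins of the body was 63.67% at day 3 and 84.44% at day 35. In the middle 4 bins it was 25.98% at day 3 and 79.36% at day 35, and in the last 4 bins 10.82% and 45.62%. As a mean, these genes thus carried the mark mainly near their start at day 3, although 201 of the 2000 gained genes had none of it in the body then. The 289 lost genes of that length went from 84.43% to 39.06% in the first 4 bins, from 64.49% to 17.97% in the middle and from 41.69% to 8.17% in the last 4. The 2454 kept genes stood at 90.97% and 90.24% in the first 4 bins, and in the last 4 bins at 53.5% and 63.78%. These classes were set by coverage of the whole body, so only where along the gene the change lay is read from the profile.

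**Figure D2:**
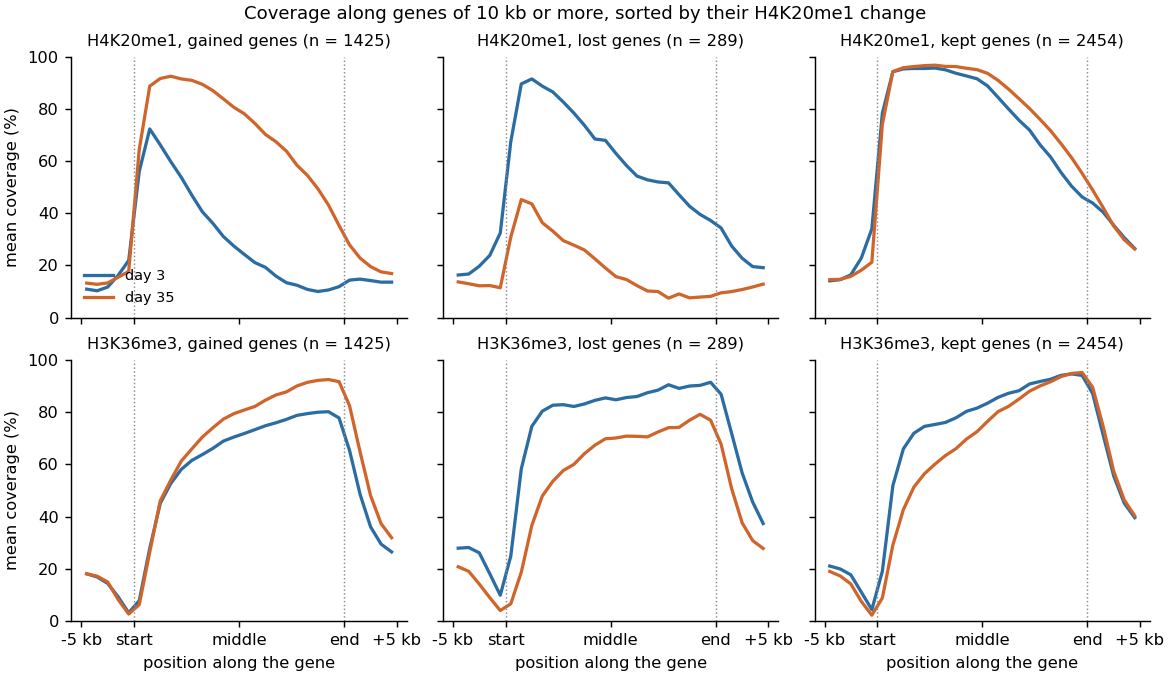
Mean coverage (y axis, %) by H4K20me1 (top) and H3K36me3 (bottom) along genes of at least 10 kb that gained, lost or kept H4K20me1, from 5 kb before the start to 5 kb after the end (x axis; the body is in 20 equal bins), at day 3 (blue) and day 35 (orange). H4K20me1 was highest within the first 4 bins in gained and lost genes and in bin 6 in kept genes. In gained genes its mean was higher along the whole body at day 35. H3K36me3 rose toward the gene end in all classes.

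Gene length went with the share that gained. In the shortest 20% of genes, up to 3290 bp, 2.89% gained and 3.41% lost, and 13.77% gained in the middle 20%, of 10219 to 22976 bp. In the longest 20% of genes, 7.63% gained and 1.38% lost. Non-overlapping neighbours of a gained gene were themselves gained in 13.35% of cases, and neighbours of a lost gene were lost in 8.3%, against 9.34% and 2.68% of all genes.

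The 12 largest gains were taken among genes of at least 5 kb whose gain was left at 10 points or more after the day 35 list was trimmed. Bmp2, a bone morphogenetic protein ligand, was at 0% at day 3 and 97.94% at day 35. Ak4, a mitochondrial adenylate kinase, went from 0% to 97.63%, and Gys1, muscle-type glycogen synthase, from 9.28% to 100%. P4ha2, a prolyl 4-hydroxylase subunit needed for stable collagen, went from 5.88% to 95.68%. Asns, asparagine synthetase, stood at 5.16% and 97.09% and Trib3, a stress-induced pseudokinase, at 0% and 92.51%. The homeobox gene Dlx3, which acts in osteoblast differentiation, went from 0% to 91.9%, Klf15, a Krüppel-like transcription factor, from 0% to 92.33%, and Mgll, monoacylglycerol lipase, from 1.45% to 94.82% over 103.9 kb. The others were the potassium channel gene Kcnj2 (0% and 99%), the receptor gene Gprc5c (0% and 95.4%) and Klhl35 (0% and 100%). All 12 stood under 10% at day 3 and above 90% at day 35. This follows largely from choosing the largest changes, the smallest of which was 89.8 points.

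The widest stretches covered at day 35 alone lay in 4 genes that were almost bare of the mark at day 3. Prkag2, a regulatory subunit of AMP-activated kinase, went from 4.61% to 84.16%, with stretches of 74.1 and 59.2 kb that also took in the small gene 1500035N22Rik. Prex1, a Rac exchange factor, went from 0% to 47.37%, Dapk1, a death-associated kinase, from 2.59% to 68.16%, and Sorcs2, a sortilin-family receptor, from 2.25% to 57.78%. The longest Prkag2 stretch, chr5:24517779-24591884, had H3K36me3 over 0% and then 19.6% of its length and H3K4me1, a mark of enhancers, over 22.7% and then 53%. In this stretch H3K27Ac, a mark of active promoters and enhancers, went from 6% to 27.6%.

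The 12 largest losses held mostly genes of the cell cycle and of the interferon response. Mcm5, a subunit of the replicative helicase, fell from 98.88% at day 3 to 2.64% at day 35. Mki67, which encodes the proliferation antigen Ki-67, went from 91.13% to 1.88%, Ccna2, cyclin A2, from 87.69% to 0%, Hells, a chromatin remodeller, from 100% to 12.08%, and Pkmyt1, a kinase that inhibits CDK1, from 94.04% to 4.81%. Gins3, of the GINS replication complex, went from 87.6% to 0%, Mms22l, a replication-repair factor, from 88.05% to 0.8%, and 2810417H13Rik, which encodes the PCNA-associated factor, from 92.35% to 0%. The interferon-inducible GTPases Igtp and Iigp1 went from 93.78% and 92.84% to 0%. Atn1, a transcriptional corepressor, went from 96.73% to 7.15%. Dmrta2, a developmental transcription factor, went from 100% to 0% and had no called H3K36me3 or H3K27Ac at either day. H3K9me3, a mark of silent chromatin, covered 100% of its body at both days, and H3K4me1 100% and then 28.11%.

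The widest stretch of loss lay in Lpp, which encodes a LIM-domain protein of focal adhesions. Its body of 599.2 kb was 93.84% covered at day 3 and 29.8% at day 35. Neighbouring stretches of 163.9 kb (chr16:24392562-24556498) and 169.8 kb (chr16:24558510-24728294) at the gene's start were covered at day 3 alone. In the first of these H3K36me3 went from 95.4% to 40.8%, H3K27Ac from 67.1% to 79.6% and H3K4me1 from 72.6% to 76%. H4K20me1 and H3K36me3 were thus lower at day 35 in that stretch while H3K27Ac and H3K4me1 were not. Zfpm2, which encodes a cofactor of GATA factors, went from 77.93% to 0.71%, with H3K36me3 at 49.87% and 1.42% and H3K4me1 at 47.66% and 9.37%. The widest stretch lost in Mms22l was 46.4 kb.

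Replication genes were the list with the largest share of losses. Of 30 autosomal genes for DNA replication 21 lost the mark (70%) and 1 gained it (3.33%), against 2.68% and 9.34% of all genes. The median change was -41.63 points, against a median of 0 over all genes. Coverage of the helicase subunits at day 3 and day 35 was 100% and 13.28% at Mcm4, 100% and 15.91% at Mcm6, 72.46% and 17.29% at Mcm3, 100% and 53.06% at Mcm7 and 90.03% and 55.48% at Mcm2. All 6 subunits of that ring, Mcm5 included, were lower at day 35. The nucleotide-supply genes went from 74.77% to 7.47% at Tyms (thymidylate synthase), from 100% to 38.47% at Rrm2 and from 58.54% to 10.54% at Rrm1 (both ribonucleotide reductase). The flap endonuclease gene Fen1 went from 100% to 39.9%. The member that gained was Rfc5, a clamp-loader subunit, from 44.71% to 70.24%. The licensing factor gene Cdt1 was at 100% at both days and the sliding clamp gene Pcna at 89.16% and 73.27%.

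Part of the promoters of this list share a short motif. The 300 bases around each gene start (250 before, 50 after) were read from the mm9 genome and searched on both strands for the E2F-type octamers TTTCCCGC, TTTGGCGC, TTTGCCGC and TTTCGCGC, the motif family that E2F factors read in S-phase genes. Of the 30 replication promoters 9 held one (30%), and 7 of the 21 that lost the mark did, against 584 of 21418 promoters (2.73%), and among all lost genes 60 of 574 did (10.45%). Mcm5 and Mcm6 are shown because they lie among the deepest losses and hold the motif more than once. Capitals mark the octamers on either strand, and neighbouring matches can overlap. The stretches, read 5′ to 3′ on the strand of the gene, are chr8:77633215-77633476 on the plus strand for Mcm5 and chr1:130256282-130256432 on the minus strand for Mcm6.
Mcm5: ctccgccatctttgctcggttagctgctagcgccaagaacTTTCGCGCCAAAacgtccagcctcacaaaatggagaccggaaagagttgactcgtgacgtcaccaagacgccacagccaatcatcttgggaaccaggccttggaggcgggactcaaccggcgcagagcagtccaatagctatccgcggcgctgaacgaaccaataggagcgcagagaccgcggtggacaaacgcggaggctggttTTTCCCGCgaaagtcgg
Mcm6: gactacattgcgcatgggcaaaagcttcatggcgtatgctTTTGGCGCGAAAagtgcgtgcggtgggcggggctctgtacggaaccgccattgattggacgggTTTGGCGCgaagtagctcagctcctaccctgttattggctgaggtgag
A match is a description of these letters and not evidence of binding.

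Mitosis genes lost the mark in 16 of 31 cases (51.61%) and gained it in none, against 2.68% and 9.34% of all genes. The median change was -31.04 points. Beside Mki67 and Ccna2, coverage went from 92.97% to 19.39% at Cdk1, the mitotic kinase, from 91.85% to 16.06% at Incenp and from 59.31% to 0% at Aurkb, both of the chromosomal passenger complex, and from 48.31% to 0% at Top2a, topoisomerase II alpha. The median mitosis gene was covered over 31.04% of its body at day 3 and 0% at day 35. Many members were covered over only part of the body at day 3, and coverage along the body was not profiled for this list. Over the first 5 kb of the gene 28 of the 31 lost 25 points or more, against 4.19% of all genes. Espl1, which encodes separase, was at 0% at both days, and Bub1 and Ttk, spindle checkpoint kinases, stood at 6.12% and 6.2% at day 3 and at 0% at day 35.

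The cell cycle homology element, TTTGAA or TTCGAA, is a motif of promoters that act in G2 and mitosis. It lay on either strand in 22 of 31 mitosis promoters (70.97%) and in 11 of the 16 that lost the mark (68.75%), against 17.55% of all promoters. The members that lost the mark thus held the element no more often than the whole list. Among all lost genes the share was 23.52%, and among genes uncovered at both days 21.92%. The CCAAT box, CCAAT on either strand, lay in 25 of the 31 (80.65%) against 37.57%. Cdk1 and Mki67 are shown because each holds the element, in capitals, more than once. The stretches are chr10:68815637-68815771 for Cdk1 and chr7:142908099-142908218 for Mki67, both on the minus strand.
Cdk1: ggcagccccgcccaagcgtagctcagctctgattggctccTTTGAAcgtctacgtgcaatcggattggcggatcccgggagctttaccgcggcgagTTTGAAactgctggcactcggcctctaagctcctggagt
Mki67: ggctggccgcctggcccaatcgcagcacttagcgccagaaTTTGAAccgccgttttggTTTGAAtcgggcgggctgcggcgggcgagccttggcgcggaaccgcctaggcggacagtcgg

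Among cell cycle regulators the losses lay in part of the list. Of 29, 9 lost the mark (31.03%) and none gained it, against 2.68% and 9.34% of all genes. The losses were the cyclin E genes Ccne1 (72.57% and 0%) and Ccne2 (100% and 55.37%), E2f1 (100% and 43.84%), E2f7 (38.39% and 0%), E2f8 (30.09% and 0%), the mitotic transcription factor gene Foxm1 (39.49% and 0%), Rbl1 (44.74% and 0%), Cdk2 (40.38% and 10.15%) and the inhibitor gene Cdkn2c (100% and 17.55%). Genes of the D-type cyclin step did not reach 25 points: Ccnd1 stood at 98.59% and 97.81%, Ccnd2 at 100% at both days, Ccnd3 at 5.59% and 6.39%, Cdk4 at 94.94% and 94.78% and Cdk6 at 40.56% and 61.81%. The inhibitor gene Cdkn2a stood at 89.81% and 69.05%, and the inhibitor genes Cdkn1a and Cdkn1b stood at 91.73% and 86.54% and at 96.46% and 95.62%.

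Replication-dependent histone genes are transcribed in S phase. They lost the mark in 24 of 67 cases (35.82%) and gained it in 3 (4.48%), against 2.68% and 9.34% of all genes. The lost genes lay in the cluster of chromosome 13, apart from Hist2h3b on chromosome 3. Hist1h1a, Hist1h1b, Hist1h3a and Hist1h4a were each at 100% at day 3 and 0% at day 35. The median of the family went from 70.58% to 0%. These genes are short and lie side by side, so a single region can cover several of them, and they are not independent of each other.

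Interferon response genes lost the mark in 16 of 38 cases (42.11%) and gained it in none, against 2.68% and 9.34% of all genes. The median change was -16.48 points. Coverage went from 100% to 35.55% at Stat2, a signal-carrying transcription factor, and from 88.4% to 41.13% at Irf7 and 70.33% to 37.31% at Irf9, partner factors. Among effectors, Irgm2 went from 91.96% to 25.73%, Ifit3 from 55.22% to 0% and Gbp3 from 47.41% to 0%. The class II antigen gene H2-Eb1 went from 79.69% to 0%. The inducible proteasome subunit genes Psmb8 and Psmb9 went from 99.04% to 43.04% and from 100% to 55.89%. Psmb10, the other inducible subunit gene, is not on this list and went from 57.37% to 24.69%. Others of the pathway were covered at both days: Irf1 at 100% and 96.68%, Tap1 at 100% and 100%, B2m at 100% and 98.41% and Socs1 at 82.59% and 80.86%. Ciita, the class II transactivator, was at 5.69% at both days although its H3K27Ac coverage went from 53.61% to 4.06% and its H3K36me3 coverage from 56.21% to 19.1%. The interferon gamma of the expansion medium had been withdrawn before both days.

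The core of the interferon-stimulated response element was searched as GAAANNGAA on both strands. It lay in 18 of 38 interferon promoters (47.37%) and in 7 of the 16 that lost the mark (43.75%), against 8.86% of all promoters. The members that lost the mark thus held the core no more often than the whole list. Among all lost genes the share was 11.5%, and among genes uncovered at both days 10.42%. Igtp is shown as the deepest loss of the list, and Gbp2, 5.43% covered at day 3 and 0% at day 35, as a member that holds the same core without a called change. The stretches are chr11:58012984-58013103 for Igtp and chr3:142283496-142283615 for Gbp2, both on the plus strand, with the core in capitals.
Igtp: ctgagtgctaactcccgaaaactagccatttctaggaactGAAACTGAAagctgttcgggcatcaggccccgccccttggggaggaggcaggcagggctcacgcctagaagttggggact
Gbp2: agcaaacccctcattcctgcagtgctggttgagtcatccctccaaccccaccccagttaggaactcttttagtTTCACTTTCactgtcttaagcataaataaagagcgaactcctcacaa

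**Figure D3:**
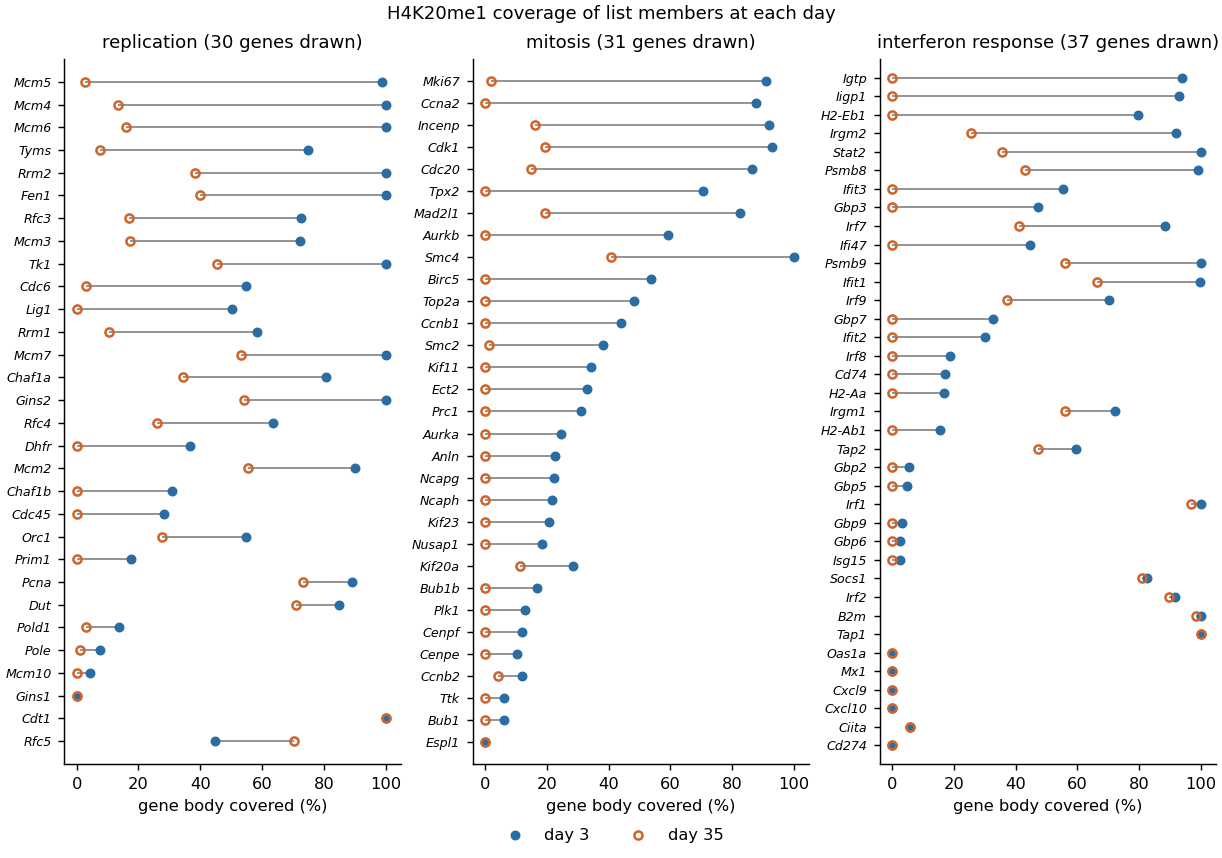
H4K20me1 coverage of the gene body (x axis, %) at day 3 (filled blue) and day 35 (open orange) for members of the replication, mitosis and interferon response lists (1 interferon response gene is not drawn), ordered by change. Day 35 lies to the left of day 3 in nearly all genes that changed; Rfc5 is the exception, and genes such as Cdt1, Tap1 and B2m are covered at both days.

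Of 19 genes that write, erase or read the mark, 2 gained it (10.53%), near the 9.34% of all genes. In the same list 5 lost it (26.32%), against 2.68% of all genes. Setd8, the writer, was 72.41% covered at day 3 and 70.9% at day 35, and Suv420h1 and Suv420h2, which take the mark to higher methylation states, stood at 88.69% and 100% and at 12.09% and 23.53%. Jhdm1d, of the demethylase family, gained (45.1% and 90.85%), as did Trp53bp1 (36.75% and 65.99%), which reads methylated H4K20 at DNA breaks. The losses among the 19 members were Ncapg2 (89.08% and 5.26%) and Ncapd3 (36.23% and 10.01%), condensin II subunits, Dtl (87.99% and 6.98%), the ligase adaptor that targets SETD8 for destruction, the methyltransferase gene Whsc1 (89.23% and 49.01%) and Orc1 (54.86% and 27.7%), whose protein reads H4K20 methylation at replication origins. Orc1 is also on the replication list. Coverage of a gene by the mark is not a measure of that gene's product.

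Of 29 osteoblast genes 8 gained (27.59%) and 2 lost (6.9%), against 9.34% and 2.68% of all genes, and 11 kept the mark. With 5 kb added on each side of the body, 4 gained and 0 lost, against 6.14% and 1.85% of all genes in that setting. Sp7, which encodes osterix, the transcription factor of osteoblast commitment, was 6.24% covered at day 3 and 84.47% at day 35, while its H3K27Ac coverage was 100% at both days and its H3K36me3 coverage 76.65% and 83.97%. Gains also fell on Ifitm5 (43.46% and 100%), a bone-restricted membrane protein gene and the matrix genes Postn (33.94% and 73.33%), Lum (0% and 47.16%) and Fmod (55.56% and 89.13%). The losses were Twist1 (100% and 67.26%), which restrains osteoblast maturation, and Ogn (95.33% and 69.39%), osteoglycin. Runx2, the master regulator, stood at 68.69% and 66.26%, Col1a1, type I collagen, at 100% and 99.92% and Alpl, alkaline phosphatase, at 67.37% and 87.24%. Ibsp, bone sialoprotein, was at 0% and 4.07% although its H3K27Ac coverage went from 4.72% to 100% and its H3K36me3 coverage from 21.17% to 82.1%. Bglap, osteocalcin, was at 0% at both days, with H3K27Ac at 50.62% and 100%.

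The osteocyte list held both covered and uncovered genes. Of 21, 6 were uncovered at both days (45.54% of all genes were) and 4 kept the mark: Cd44, a matrix receptor gene (91.96% and 86.06%), Dstn, destrin, an actin-severing protein gene (99.05% and 99.21%), Gja1, the gap junction gene of connexin 43 (98.84% and 99.05%), and Mmp14, a membrane metalloprotease gene (95.41% and 96.1%). Of the 21, 3 gained (14.29%) and none lost, against 9.34% and 2.68% of all genes: Tnfrsf11b, the decoy receptor osteoprotegerin (1.79% and 50.88%), Pdpn, podoplanin of early osteocyte dendrites (24.23% and 59.8%), and Hyou1 (11.93% and 40.61%), a stress chaperone of the endoplasmic reticulum. Mepe, Sost and Fgf23, secreted products of mature osteocytes, were at 0% at both days, and Tnfsf11, the osteoclast-inducing ligand RANKL, at 1.63% and 0%. Of the defining osteocyte markers, Sost had no called H3K27Ac or H3K36me3 at either day, and Mepe had H3K27Ac over 39.68% and 65.81% of its body but no H3K36me3.

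Dmp1, the osteocyte matrix gene whose promoter also drives the GFP transgene, needs separate treatment. Its coverage was 41.22% at day 3 and 40.57% at day 35. In all 18 lists of the 9 marks, H3K9me3 of silent chromatin and H3K4me3 of active promoters included, a single region ran over its start, beginning between 8.21 and 10.38 kb before it. In 13 of the 18 lists this region ended between 4.5 and 4.88 kb after the start. The H4K20me1 region ran from 8.49 kb before to 4.74 kb after the start at day 3, with a score per kb of 373.6 that no region of 10 kb or more exceeded. At day 35 it ran from 8.38 kb before to 4.66 kb after, with a score per kb of 120.9. Reads from the transgene and from the gene's own promoter cannot be told apart here, so the Dmp1 values are not read as a measure of that gene.

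Mineralization genes gained in 3 of 18 cases (16.67%) and lost in 2 (11.11%), against 9.34% and 2.68% of all genes. Over the first 5 kb of the gene 5 gained and 1 lost, against 7.75% and 4.19% of all genes in that setting. Phospho1, the phosphatase that starts mineral in matrix vesicles, went from 0% to 72.82%, Smpd3, its partner sphingomyelinase, from 0% to 68.1%, and Ank, the pyrophosphate transporter, from 34.76% to 93.05%. The losses were Mgp, an inhibitor of mineralization (63.86% and 28.84%), and the proteoglycan gene Vcan (49.33% and 13.51%).

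In the Wnt pathway 9 of 34 genes gained (26.47%) and 3 lost (8.82%), against 9.34% and 2.68% of all genes. Over the first 5 kb 5 lost, in a setting where 4.19% of all genes did. By role, ligand genes Wnt5a (34.87% and 89.81%) and Wnt5b (11.96% and 37.49%) gained, as did the receptor genes Lrp4 (32.71% and 90.09%), Lrp5 (36.71% and 63.02%) and Lgr4 (43.57% and 69.83%), the antagonist gene Dkk2 (16.81% and 75.54%) and the transcriptional targets Tcf7 (10.09% and 66.32%), Axin2 (23.21% and 70%) and Wisp1 (38.81% and 97.56%). Losses fell on the agonist gene Rspo3 (93.55% and 28.47%), the ligand gene Wnt16 (44.91% and 0%) and Wisp2 (77.32% and 32.65%). The transducers Ctnnb1, β-catenin (83.1% and 83.8%), and Gsk3b (98.21% and 99.61%) were covered at both days.

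In the BMP and TGF-β pathway 5 of 33 gained (15.15%) and none lost, against 9.34% and 2.68% of all genes, and 18 kept the mark. With the day 35 list trimmed 3 lost, in a setting where 5.05% of all genes did. The gains were the ligand genes Bmp2, Tgfb1 (18.51% and 96.42%) and Tgfb3 (30.82% and 77.16%), the antagonist gene Grem1 (0% and 42.66%) and the receptor gene Bmpr2 (70.66% and 97.46%). The signal carriers Smad1 (93.17% and 97.51%) and Smad3 (92.06% and 95.6%), the inhibitor Smad7 (97.87% and 99.58%) and the target Id1 (100% and 100%) were covered at both days. Among vitamin D targets 3 of 20 gained (15%) and none lost, against 9.34% and 2.68% of all genes. With only 3 genes, the higher share of gains is not read as a difference. Of the 20, 13 were uncovered at both days (65%, against 45.54% of all genes). Over the first 5 kb 1 gained and 1 lost, against 7.75% and 4.19% of all genes in that setting. Vdr, the vitamin D receptor gene, went from 1.73% to 44.52%, with H3K36me3 at 5.18% and 49.5%. Cyp24a1, the hormone-degrading enzyme, had no called H4K20me1, H3K36me3 or H3K27Ac at either day.

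Lysosome and autophagy genes gained in 6 of 17 cases (35.29%, against 9.34% of all genes) and lost in none, with a median change of 13.37 points. The cathepsin genes Ctsl, Ctsd and Ctsb, which encode lysosomal proteases, went from 11.57% to 96.11%, from 38.93% to 82.9% and from 55.19% to 86.25%, and Ulk1, the kinase that starts autophagy, from 50.81% to 85.29%. Of 24 cytoskeletal genes 3 gained (12.5%) and 2 lost (8.33%), near the 9.34% of all genes for the gains. With the day 35 list trimmed 1 gained, in a setting where 7.04% of all genes did. The losses were the smooth-muscle type genes Acta2 (83.05% and 34.11%) and Tagln (74.47% and 13.12%). Ezr, ezrin, which ties actin to the membrane, gained (5.87% and 55.53%). Of 12 housekeeping genes 1, Tbp, gained (8.33%) and none lost, near the 9.34% and 2.68% of all genes. Actb stood at 100% at both days.

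**Figure D4:**
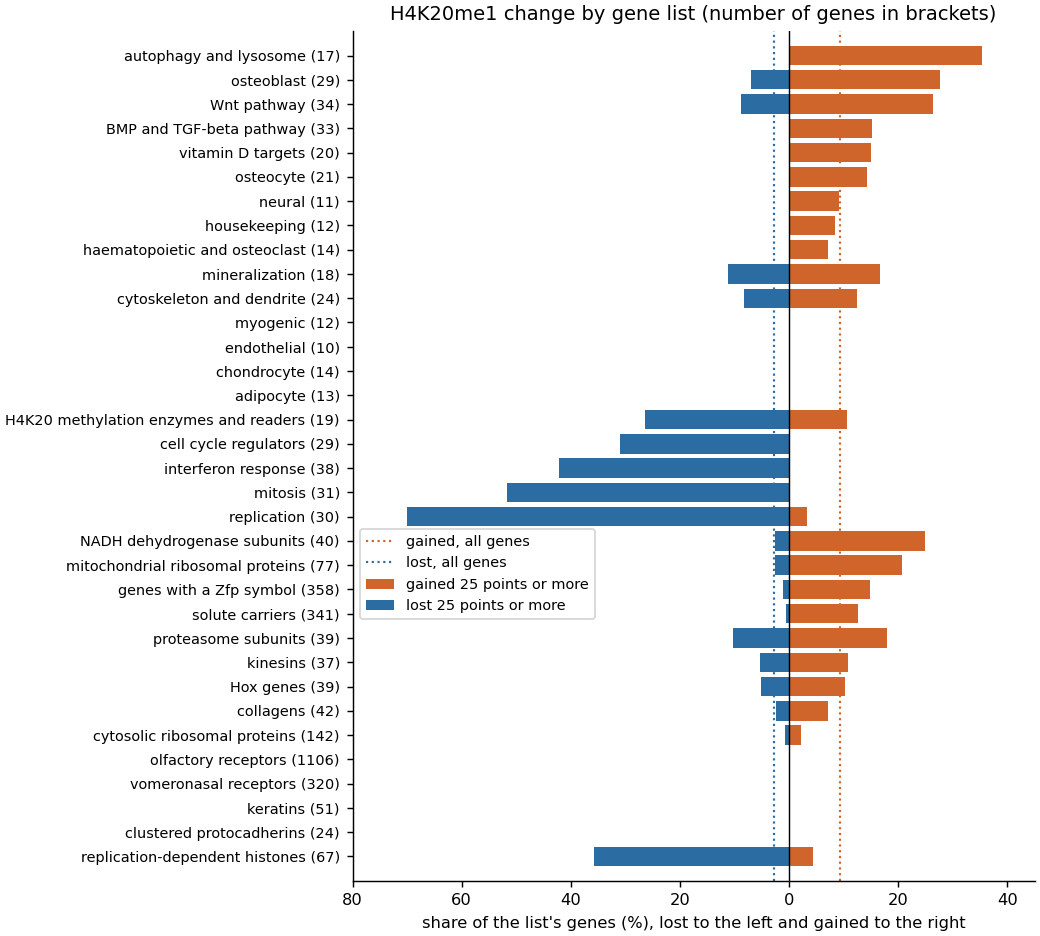
Share of each gene list (x axis, %) that gained (orange, right) or lost (blue, left) 25 points or more of H4K20me1 coverage, with the number of genes in brackets; dotted lines give the shares over all genes, 9.34% gained and 2.68% lost. Losses are largest for replication, mitosis, interferon response and the replication-dependent histones.

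Markers of other cell types that a culture could hold were mostly uncovered. In the adipocyte, chondrocyte, myogenic and endothelial lists no gene gained or lost, and 11 of 12 myogenic and 8 of 10 endothelial genes were uncovered at both days. The defining markers Adipoq, Plin1, Fabp4, Acan, Myod1, Myog, Myf5, Des, Ptprc, Sfpi1, Acp5, Pecam1, Cdh5, Kdr and Snap25 were at 0% at both days. Col2a1 (12.9% and 0%) and Col10a1 (5.43% and 10.65%), also defining chondrocyte markers, were covered in small part. H3K36me3 covered 100% and 82.62% of Col10a1. H3K27Ac went from 0% to 45.6% at Fabp4, from 9.88% to 51.53% at Sfpi1 and from 48.19% to 0% at Myf5. Genes of these lists and of the haematopoietic and neural lists that were at least 20% covered at either day were Sox9, shared with skeletal precursors (98.16% and 98.92%), Cebpa (62.76% and 61.35%), Pparg (22.38% and 2.63%), Lipe (6.34% and 27.93%), Comp (7.7% and 32.36%), Cd68 (25.97% and 34.21%), Ctsk, cathepsin K (21.23% and 92.9%), Cldn5 (24.96% and 0%) and Tubb3 (34.19% and 65.23%). Of the 8 osteoblast markers 4 were at least 50% covered at day 3 and 5 at day 35, and of the 5 osteocyte markers 0 and 1.

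Other families set by symbol are read against the 9.34% of all genes that gained and the 2.68% that lost. Proteasome symbols gained in 7 of 39 cases and lost in 4 (10.26%), kinesins gained in 4 of 37 and lost in 2 (5.41%), and Hox genes gained in 4 of 39 and lost in 2 (5.13%). Genes with a Zfp symbol, many of them zinc-finger repressors, gained in 53 of 358 cases and lost in 4. Mitochondrial ribosomal protein genes gained in 16 of 77 cases and lost in 2, with Mrps14 going from 18.16% to 95.54%, and Nduf genes, mostly of respiratory complex I, gained in 10 of 40 and lost in 1, with Ndufs3 going from 19.33% to 72.5%. Cytosolic ribosomal protein genes gained in 3 of 142 cases and lost in 1, and their medians were 88.58% and 86.95%. Collagen symbols gained in 3 of 42 cases (7.14%) and lost in 1 (2.38%), near the shares of all genes: Col11a1 went from 46.09% to 96.88% and Col6a3 from 55.91% to 86.71%, while Col3a1, type III collagen, went from 47.79% to 22.38%. Of 1106 olfactory receptor genes 1104 were uncovered at both days.

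H3K36me3, the elongation mark, was often in place where H4K20me1 changed. Over all genes 4.99% gained and 3.91% lost 25 points of H3K36me3 coverage. Among the 2000 genes that gained H4K20me1, 70.65% were already at least 50% covered by H3K36me3 at day 3, against 37.07% of all genes and 84.92% of the genes that kept H4K20me1. In H3K36me3, 67.5% of the gained genes changed by less than 10 points, against 78.63% of all genes and 61.83% of kept genes, and 13.35% gained it. Among the 574 that lost H4K20me1, 24.74% lost H3K36me3 and 305 (53.14%) changed by less than 10 points, of which 162 were at least 50% covered by H3K36me3 at day 3. Mcm5 is an example of these 162, with H3K36me3 at 97.65% and 91.23%, as is Hells at 97.82% and 95.01%, while at Mki67 H3K36me3 went from 90.77% to 24.85%. The kept genes lost H3K36me3 in 11.16% of cases and gained it in 1.01%.

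H3K27Ac moved the same way as H4K20me1 in part of the genes. Over all genes 7.65% gained and 2.09% lost 25 points of H3K27Ac coverage. It was gained at 24% of genes that gained H4K20me1 and at 18.86% of genes that kept it, and it was lost at 18.99% of genes that lost it. At Bmp2 called H3K27Ac went from 0% to 50.63% of the body and called H3K36me3 from 0% to 68.3%. Across the 11664 genes covered at either day, the changes of H4K20me1 and of the other marks had Pearson's r of 0.319 for H3K4me1, 0.316 for H3K27Ac, 0.307 for H3K36me3 and 0.059 for H3K9me3. These are descriptions across genes, which are not independent replicates and share libraries.

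The change in covered length differed between chromosomes, and other marks differed with it. Relative to the ratio over chromosomes 1 to 19, the day 35 to day 3 ratio of H4K20me1 length was lowest on chromosome 8 (0.829), 16 (0.851) and 19 (0.862) and highest on chromosome 14 (1.223), 7 (1.203), 18 (1.19) and 1 (1.185). Gained genes were 15.51% and lost genes 1.05% of those on chromosome 1, against 7.12% and 5.82% on chromosome 8, where Mcm5 and Gins3 lie. Over the 19 chromosomes these relative ratios had Pearson's r with H4K20me1 of 0.9 for H3K36me3, 0.9 for H3K4me1, 0.93 for H3K4me2 and 0.88 for H3K27Ac, and of -0.09 for H3K9me3 and 0.16 for H3K9Ac. Whether a difference between the cells of the 2 days in chromosome number or a difference in the libraries had a part in this was not tested. On the 10 chromosomes within 10% of the overall ratio, a set chosen after seeing the data, 8.48% of genes gained and 3.03% lost. There 6 of 11 replication, 12 of 23 mitosis and 6 of 12 interferon genes lost the mark.

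**Figure D5:**
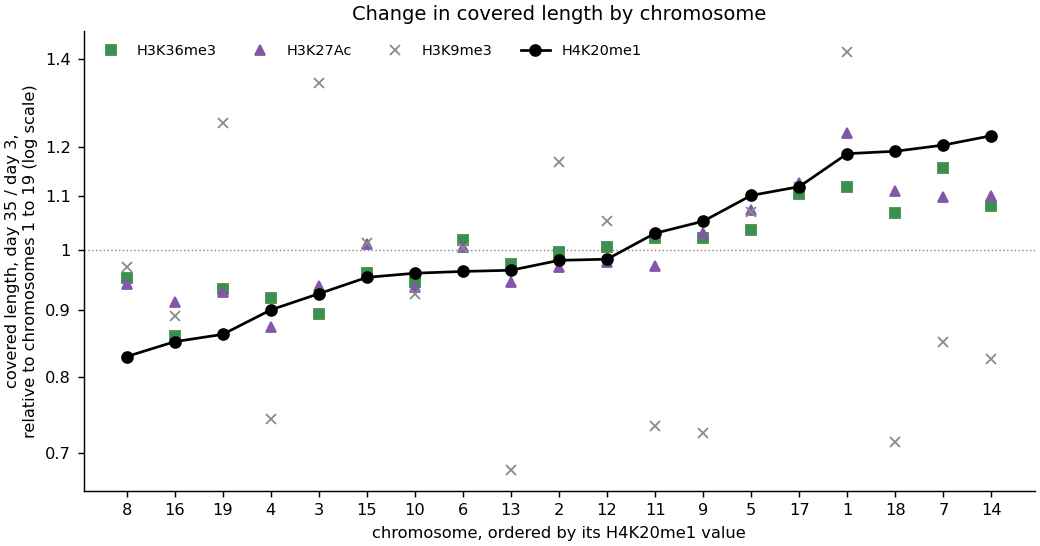
Covered length at day 35 divided by that at day 3 for each chromosome, relative to the ratio over chromosomes 1 to 19 (y axis, log scale), for H4K20me1 and 3 other marks; chromosomes are ordered by the H4K20me1 value (x axis), from 0.829 on chromosome 8 to 1.223 on chromosome 14. H3K36me3 and H3K27Ac follow the same order broadly, and H3K9me3 does not.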

How the data were processed

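One deposited list of H4K20me1 regions was used for each library. The submitters' processing notes name Bowtie, HOMER and mm9, without versions; calling parameters and any use of inputs were not given in the sources at hand. Each line gives a position with the authors' deposited score, of unstated scaling, which served only for ranking within a list, for score per kb and for finding steps. None of the 937290 regions ran past a chromosome end of NCBIM37 (count 0), the assembly from which promoters were read, with gene starts from GENCODE M1.

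Gene coverage, shared bases, widths and motif matches were computed in Python 3.11.15 with numpy 2.4.6 and pandas 2.3.3, and the interval arithmetic was tested on simulated intervals. The genes, lists and symbol families were chosen with earlier results of these data known. Named genes were the 12 largest gains and 12 largest losses of genes of at least 5 kb that moved by 10 points or more in the same direction after trimming, the longest of overlapping genes, list members that gained or lost, a set of bone, vitamin D, cell cycle and interferon genes named in any case, and genes under the 5 widest regions or stretches. Some genes that the rule names are not reported here. Gm20388, an annotated model that spans many genes, is not described. Members that did not change, and family members, were added as examples after their values were seen. Where a symbol has 2 gene models, both were counted and the longer is described. Symbol families also take in a few genes that are not of the family by function. Alternatives changed the window, the regions, the gaps filled, the genes and the size of change.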

Additional observations from a re-analysis of the deposited data

How the results depend on the processing

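No paired analysis was possible because each day has 1 library. Of 106 recomputed counts, lengths, widths and percents, 85 lay within 1.5 times the reported value. The count of gained genes was 1314 with 5 kb added on each side of the body. Lost genes numbered 1082 with the longer list trimmed and 897 over the first 5 kb, where 6984 genes were at least 50% covered at day 3 and 28 mitosis genes lost the mark; the cause was not tested. A change of 10 points gave 4115 gained and 1390 lost genes and one of 50 points 548 and 218. Median widths moved with the list: 5096 bp at day 3 and 11177 bp at day 35 for the higher-scoring 50%, 15815 bp at day 35 when trimmed, 3486 bp at day 3 for equal numbers, and 7006 bp at day 35 with gaps under 5 kb filled. Fewer genes gave smaller counts: 11 of 18 replication genes lost the mark among genes that overlap no other, and on the 10 chromosomes near the overall ratio, added after seeing the data, 997 genes gained, 356 lost, 2710 and 3289 were at least 50% covered at day 3 and day 35, and 6 replication and 6 interferon genes lost the mark. Of 413 recomputed changes of 59 named genes, 353 lay within 10 points, 60 moved further and 0 were counted as reversed. A small change that turned sign was not counted as reversed. Setd8 went from -1.51 points to 0.72 with the higher-scoring 50% and was counted within 10 points. The largest gains and losses had been chosen for moving in the same direction after trimming, so they could not reverse in that setting. The count of 0 is therefore partly set by these rules. Depth is unknown, so a region that is not called is not shown to lack the mark.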

Other observations

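Other groups were drawn up after the largest gains had been seen, so their counts describe the choice as well as the data. Over all genes 9.34% gained and 2.68% lost. Of 18 genes of the low-oxygen response, 11 gained H4K20me1 and 1 lost it, and Ak4, Gys1 and P4ha2 among the 11 are also among the largest gains that prompted the list: Egln3, an oxygen-sensing prolyl hydroxylase, went from 7.22% at day 3 to 91.78% at day 35, Pdk1, which holds pyruvate out of the mitochondrion, from 5.35% to 87.03%, Mxi1, a MYC antagonist, from 5.16% to 87.84% and Vegfa from 57.58% to 100%. Adm, adrenomedullin, went from 100% to 23.18%. Of 16 glycolysis genes 5 gained and 1 lost, with Gpi1 going from 8.36% to 92.72%, Pfkl from 4.51% to 84.95% and Hk2 from 21.61% to 95.91%, while Eno2 went from 29.38% to 0%. Of 21 genes of the amino acid stress response, 13 gained and none lost: beside Asns and Trib3, Chac1 went from 0% to 96.42%, Phgdh, the first enzyme of serine synthesis, from 19.16% to 89.25%, and Mthfd2 from 32.09% to 95.77%. The factor gene Atf4 stood at 100% and 89.48%, and the cystine transporter gene Slc7a11 was at 0% at both days.

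The C/EBP-ATF response element, searched as TGATGNAAN on both strands, lay in 7 of these 21 promoters (33.33%) and in 6 of the 13 that gained, against 3.51% of all 21418 promoters and 2.7% of all gained genes. Trib3 and Asns are shown as the members with the element among the largest gains, at chr2:152169719-152169838 and chr6:7643205-7643324, both on the minus strand, with the match in capitals.
Trib3: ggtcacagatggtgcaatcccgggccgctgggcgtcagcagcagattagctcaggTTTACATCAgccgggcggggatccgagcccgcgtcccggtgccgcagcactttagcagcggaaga
Asns: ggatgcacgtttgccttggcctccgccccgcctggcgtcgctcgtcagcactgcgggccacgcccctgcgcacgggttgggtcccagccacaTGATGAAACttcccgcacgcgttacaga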
